A study of Mus musculus with 29 samples.

Results

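The aortic arch of DNA repair-deficient Ercc1Δ/- mice kept on dietary restriction (DR) to 22 weeks of age was compared with the arch of young Ercc1Δ/- mice at 6 weeks. The comparison rests on 10 of the 29 RNA samples of the series, chosen by genotype, age and diet as labelled: 5 Ercc1Δ/- mice at 22 weeks on DR (samples 006, 014, 016, 022 and 029) and 5 Ercc1Δ/- mice at 6 weeks with unlimited food (AL; samples 002, 008, 015, 023 and 027). Each group held 3 males and 2 females. All 10 mice were F1 hybrids of C57BL6J and FVB, carried the Δ and the null allele of Ercc1 in every cell, ate the same AIN93G pellets and were housed alone. For the restricted mice food was cut by 10% at 7 weeks of age, by a further 10% each week, and stayed at 30% below normal from 9 weeks onward, so the young group had never been restricted. Age and diet therefore changed together, and their parts in any difference between these groups cannot be told apart. The question was which transcripts of the young aorta were still different after restriction and which stood at their 6-week level. Sets of values below follow the sample order just given.

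ERCC1 is the partner of the nuclease XPF, and together they cut damaged DNA during nucleotide excision repair and interstrand crosslink repair. Mice with a null and a truncated allele age early in many organs, the vessel wall included. The aortic arch is built from smooth muscle cells between elastic layers, an inner endothelium and an outer adventitia of fibroblasts. It lays down most of its elastin and collagen early in life, and these proteins are then kept for a long time. DR is the best known means of delaying ageing in this model.

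The libraries labelled Ercc1Δ/- gave Ercc1 (ENSMUSG00000003549, GRCm39 chromosome 7, 19075881 to 19090450) normalized counts of 31.2, 41, 42.1, 38.3 and 56.3 at 6 weeks and of 28.2, 78.7, 36, 64.1 and 78.1 at 22 weeks on DR, and the groups overlapped. Wild-type (WT) littermates averaged 101 ± 33.7 (SD, n = 5) at 6 weeks AL and 114 ± 14.6 (n = 5) at 22 weeks DR. The difference between the mutant groups did not pass the test (log2 fold change 0.47 ± 0.23 SE, edgeR adjusted p = 0.227). The sex genes matched the labelled sex in all 10 libraries.

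Gene counts totalled 2299482 to 3979441 reads per library at 6 weeks and 921167 to 2572523 on DR. The restricted libraries were thus shallower (p = 0.0238 by exact permutation of the library totals, both sides counted, where 5 against 5 allows no less than 0.00794), and the share of reads outside genes was higher in them, at 9.34 to 10.1% against 7.45 to 9.05%. Smooth muscle markers were abundant in every library, with all 8 genes present and a summed level of 23983 to 33969 CPM (counts scaled to a fixed library total) at 6 weeks and 24872 to 27769 on DR. Summed markers of the 14-gene endothelial list ran from 886 to 1967 and from 1199 to 1924 CPM, and those of the 15-gene macrophage list from 341 to 762 and from 544 to 853. The 12 adventitial fibroblast markers summed to 3535 to 4649 CPM at 6 weeks and 2381 to 3891 on DR. Cardiac muscle markers were higher on DR without overlap, at 79.7 to 222 against 267 to 639 CPM, with 2 of the 15 genes at 0 in all 10 libraries. Sample 016 of the DR group stood apart: its 12 serous cavity macrophage markers summed to 9287 CPM, against 1962 to 2360 in the other 4 DR libraries and 1522 to 2369 at 6 weeks, and its Alox15 count was 1012 where no other of the 10 libraries passed 16.5. In a bulk sample, fewer cells of a type and less RNA per cell cannot be told apart.

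Of 12353 genes tested, 1204 (9.75%) were differentially expressed genes (DEGs), defined by an adjusted p of at most 0.05 in edgeR's quasi-likelihood test and a change of at least 1.2-fold. At 22 weeks on DR, 522 were higher (4.23% of the genes tested) and 682 were lower (5.52%). Counts of called genes in the lists below are to be read beside these shares. Changes over 2-fold were found for 137 DEGs that rose and 133 that fell, and changes over 4-fold for 17 and 18. The 5 values of each group did not overlap for 604 of the DEGs, and this held for 6.2% of all genes tested. A fit without sample 016 gave 984 DEGs, and 314 of the 1204 lost their call in it. Fitting the 10 samples alone gave 695, and thinning every library to the lowest total gave 780.

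Staying at the 6-week level was measured by an interval and not by a missed threshold. A gene was called held when the whole 95% confidence interval of its change lay within 1.5-fold in either direction. This was so for 6624 genes, 53.6% of those tested, and 159 of them were also DEGs with a small but measured change. The stricter margin of 1.2-fold was met by 747 genes (6.05%). Another 4684 genes were neither DEGs nor held, so for these the samples could not settle the matter.

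In the extracellular matrix, many genes of collagens, elastic fibres and their assembly fell. Col3a1 encodes the chain of type III collagen, the flexible fibrillar collagen of the vessel wall. Its normalized count was 40921, 37932, 38674, 28526 and 61120 at 6 weeks and 5215, 7269, 5410, 10621 and 6531 on DR. Every restricted library lay below every young one, and Col3a1 (GRCm39 chromosome 1, 45350698 to 45395840) fell by 2.57 ± 0.19 on the log2 scale, which is 5.93-fold (adjusted p = 5.54e-10). For the type I collagen chains, Col1a1 went from 12750 to 28427 counts at 6 weeks to 3092 to 5121 on DR, a log2 change of -2.29 ± 0.19. Col1a2 went from 24207 to 41017 to 8144 to 12155, a change of -1.67 ± 0.13. Neither pair of ranges touched.

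Among 8 fibrillar collagen genes tested, 5 fell and none rose, with a median log2 change of -0.86 where the median of all tested genes was 0.01. The other 2 of those 5 were Col5a1 (-0.78 ± 0.11) and Col5a2 (-0.94 ± 0.10), which help to set the width of collagen fibrils. Of 20 other collagen genes 12 fell, with a median of -0.63. Basement membrane chains were among them: Col4a5 stood at 3017, 3177, 3075, 2475 and 3065 at 6 weeks and at 955, 1047, 1207, 1116 and 1033 on DR. This narrow, fully separated pair of ranges gave one of the smallest p-values of the data set (log2 change -1.47 ± 0.09, adjusted p = 2.76e-13). Col4a1 and Col4a2, the common chains of basement membrane collagen, fell less, by 0.72 ± 0.09 and 0.63 ± 0.10. Col6a1, Col6a2 and Col6a3, which form the beaded filaments around cells, fell by 1.30, 1.28 and 1.42, with standard errors of 0.12, 0.12 and 0.13. Col15a1, a collagen of the zone next to basement membranes, fell from 3433 to 5888 counts to 1379 to 1917 (-1.65 ± 0.13).

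Enzymes and chaperones that process collagen followed the same direction, with 19 of 28 lower, 1 higher (P3h2, 0.56 ± 0.17) and a median of -0.46. P3h2 lost its call when any of samples 015, 027, 006, 016 or 022 was left out, which gave no riser in this list without sample 016. Sparc, a collagen-binding protein of the matrix (GRCm39 chromosome 11, 55285317 to 55314067), had the smallest p-value of all genes. It was counted 31744, 26782, 29144, 24666 and 41591 times at 6 weeks and 7874, 7832, 7581, 9122 and 7145 times on DR, a log2 change of -1.95 ± 0.11 (adjusted p = 1.98e-13). The 5 restricted values sat within a narrow band and the fold change was 3.86. Serpinh1, the collagen chaperone HSP47, fell from 2977 to 4110 to 1238 to 2040 (-1.21 ± 0.14). The crosslinking enzymes Loxl1 (-1.18 ± 0.13) and Loxl2 (-1.33 ± 0.13) fell, and so did the lysyl and prolyl modifying enzymes Plod1 (-0.41 ± 0.11) and P3h3 (-0.63 ± 0.10), chosen here after their values were seen. Loxl3 was held (0.09, interval -0.15 to 0.34).

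Elastic fibres are elastin deposited on a scaffold of fibrillin microfibrils. Of 19 genes of this list 9 fell and none rose, with a median of -0.41. Eln, which encodes elastin, was counted 39336, 44586, 36625, 15353 and 79674 times at 6 weeks and 7410, 8285, 8838, 10809 and 8235 times on DR. The young values spread widely with sample 023 lowest, yet even that library was above all restricted ones (log2 change -2.27 ± 0.28, adjusted p = 9.65e-06). Fbn1, which encodes fibrillin-1, fell from 1683 to 2261 counts to 866 to 1102 (2.14-fold, adjusted p = 1.1e-08). Fbln5, needed to place elastin on the microfibrils, went from 3756 to 4365 to 1692 to 2269 (-1.04 ± 0.11). Mfap4 went from 5027 to 7067 to 2201 to 2749 (-1.24 ± 0.10). In the AL-fed mutants of 22 weeks (n = 4), measured against the same young group, the changes of Col3a1, Sparc, Eln and Mfap4 were -2.27, -1.68, -1.93 and -1.06, and in WT mice on DR against WT at 6 weeks they were -1.66, -1.43, -0.82 and -0.49. The WT change of Eln was not called (adjusted p = 0.115). The difference between genotypes in the change of Eln, -1.45 ± 0.38, did not pass edgeR's interaction test either (adjusted p = 0.143).

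**Figure D1:**
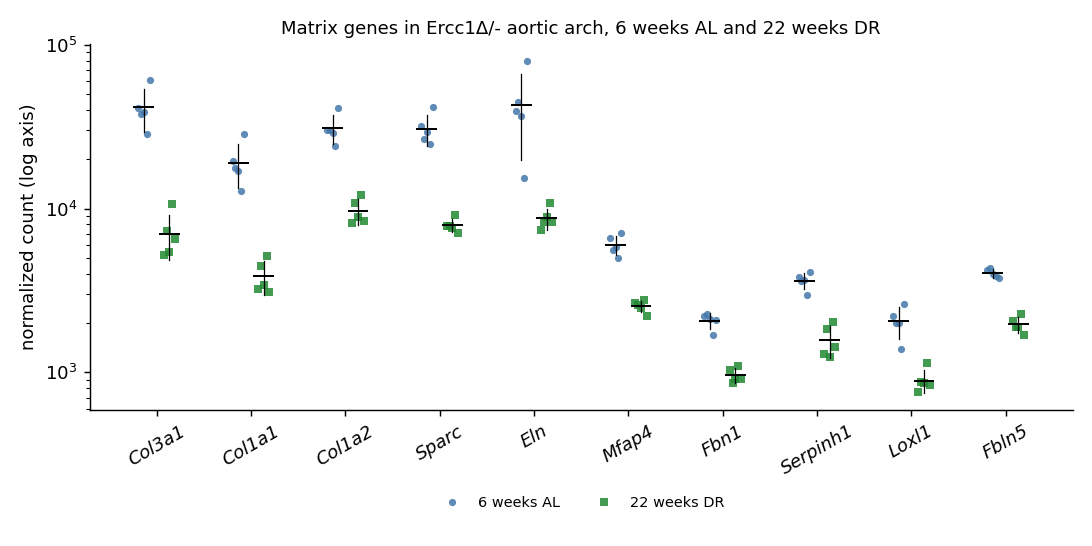
Normalized counts (log axis) of 10 matrix genes in the 5 Ercc1Δ/- samples at 6 weeks AL (circles) and the 5 at 22 weeks DR (squares), with the mean (horizontal line) and SD (vertical line). For each gene the restricted samples lie below all young ones, with the widest young spread for Eln, from 15353 to 79674.

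Proteoglycans and matricellular proteins moved in both directions, with 3 of 37 higher, 11 lower and a median of -0.15 (-0.26 without sample 016). Ccn4 and Ccn5, secreted proteins linked to Wnt signalling, were the clearest of those that fell. Ccn5 went from 501 to 691 counts at 6 weeks to 74.8 to 259 on DR (-1.79 ± 0.19), and Ccn4 from 29.7 to 41 to 1.9 to 10.9 (-2.35 ± 0.34). Bgn, the abundant wall proteoglycan biglycan, fell by 0.44 ± 0.09, while Dcn, which encodes decorin, rose by 0.51 ± 0.13. Prg4, the lubricating proteoglycan of joints and serous surfaces, was counted 176, 163, 162, 217 and 90.7 times at 6 weeks and 1242, 1228, 7089, 787 and 953 times on DR. Sample 016 was far above the rest, but all 5 restricted libraries exceeded all young ones (3.70 ± 0.54, adjusted p = 8.38e-05), and without sample 016 the change was 2.68 (adjusted p = 1.67e-05). The part of serous macrophages in the Prg4 level was not tested. The highest log2 change in the serous cavity macrophage list was also 3.70. The marker sum of sample 016 and its Prg4 count are therefore not taken as separate observations.

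Matrix metalloproteases and their inhibitors split by gene. Of 15 tested, 2 rose and 5 fell, with a median of -0.22, and without sample 016 2 rose and 3 fell. Mmp3, the protease stromelysin-1, was counted 21.5, 23.3, 19.4, 27 and 18.8 times at 6 weeks and 91.8, 66.9, 50.4, 54.6 and 55.3 times on DR. The groups were apart, and Mmp3 rose by 1.47 ± 0.26 (adjusted p = 0.000193), against 2.84 ± 0.23 in AL-fed mutants of 22 weeks. The 2 groups of 22 weeks differed from each other, with DR lower than AL by a log2 change of -1.36 ± 0.22 (adjusted p = 0.00158), so Mmp3 lay between the young and the AL-fed level. Timp4, a metalloprotease inhibitor, rose from 64.8 to 105 counts to 124 to 266 (1.30 ± 0.22). The membrane protease gene Mmp17 fell from 572 to 650 to 273 to 453 (-0.67 ± 0.11), Mmp2, gelatinase A, by 0.75 ± 0.14, and Mmp23 by 0.69 ± 0.11. Mmp15 and Mmp9 also passed the test, but the call of Mmp15 was lost without 7 of the 10 samples in turn (log2 change -1.12 to -0.77) and that of Mmp9 without samples 002, 016 or 022 (-2.39 to -1.29). Mmp14 was held at 0.23, with an interval of -0.03 to 0.49.

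The 10 risers with the smallest p-values included secreted proteins and enzymes. Fetub, encoding the secreted protease inhibitor fetuin-B, was counted 10.7, 6.5, 4.9, 7.9 and 9.4 times at 6 weeks and 106, 47.2, 64.8, 39.5 and 85.7 times on DR. It rose 8.15-fold in fully separated groups (log2 change 3.03 ± 0.29, adjusted p = 7.79e-09). Ahsg, its paralogue fetuin-A and an inhibitor of calcification, rose from 28.1 to 43.7 to 91.5 to 188 (1.94 ± 0.25). Apod, a lipid-binding lipocalin, was counted 45.8, 47.5, 42.1, 46.1 and 34.4 times and then 275, 193, 245, 229 and 154 times (2.32 ± 0.27). Celf4, an RNA-binding protein best known in neurons, rose by 2.66 ± 0.30, with sample 029 highest. Cp, the copper-carrying ferroxidase ceruloplasmin, rose by 1.13 ± 0.15. Cdo1, which starts the breakdown of cysteine, rose from 740 to 1108 to 1547 to 2137 (1.04 ± 0.13).

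Ndrg1 (1.03 ± 0.13), Sash1 (0.84 ± 0.12) and 9930111J21Rik2 (1.83 ± 0.26) completed the 10 smallest p-values among risers together with Cyp2b10. Cyp2b10 is a detoxifying cytochrome P450 best known as a target of the receptor CAR in liver. Its counts were 29.3, 47.5, 29.2, 66.4 and 37.5 at 6 weeks and 377, 256, 211, 108 and 415 on DR. The gene rose by 2.72 ± 0.36 (adjusted p = 1.9e-05), and its level on DR was also above that of AL-fed mutants of 22 weeks, which held 54.7 to 128 (1.73, adjusted p = 0.0183). For Fetub, Celf4 and Apod the AL-fed changes were 3.07, 2.64 and 2.39, beside the 3.03, 2.66 and 2.32 on DR.

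Cdkn1a, the p53 target that encodes the cell cycle inhibitor p21, rose. It was counted 461, 354, 395, 331 and 397 times at 6 weeks and 699, 653, 813, 578 and 814 times on DR (0.88 ± 0.14, adjusted p = 8.27e-05), with every restricted library above every young one. The AL-fed change was 0.80 ± 0.15 and the WT change 0.05, which was not called (adjusted p = 0.934). The difference between genotypes in this change, 0.83, did not pass the test (adjusted p = 0.105). Of 33 p53 targets tested, 5 rose and 1 fell, with a median of 0.10. The other risers were Sesn1 (0.53 ± 0.13), Perp (0.46 ± 0.12), Plk3 (0.98 ± 0.29) and Trp53inp1 (1.08 ± 0.30), and Gdf15, a stress-induced cytokine, fell by 0.90 ± 0.29. In Trp53inp1 and Sesn1 the restricted samples 006 and 016 were highest. Left-out samples ended the calls of Trp53inp1 (002, 027, 006 or 016, log2 change 0.89 to 1.28), Perp (016, 0.38 to 0.55), Plk3 and Gdf15 (7 samples each, 0.87 to 1.37 and -1.03 to -0.77). Without sample 016 the list had 2 that rose and 2 that fell. Mdm2, Ccng1 and Bax were held, at 0.15, 0.10 and 0.09.

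Proliferation genes, low in this tissue, gave 2 that rose and 1 that fell among 29 tested, with a median of -0.02. Without sample 016, 3 rose and 1 fell, with a median of -0.16. Over all tested genes 4.23% were called higher and 5.52% lower. Mki67, the standard proliferation marker, stood at 20.3 to 65.7 counts at 6 weeks and 3.9 to 28.8 on DR, with overlap (-1.14 ± 0.43, adjusted p = 0.0947). Hmgb2 rose by 0.88 ± 0.19. Anln (0.66 ± 0.20) and Prc1 (-1.16 ± 0.38) lost their calls without 7 of the 10 samples each in turn (0.56 to 0.79, and -1.39 to -0.97). Of 26 nucleotide excision repair genes 19 were held, where 53.6% of all tested genes were held. In that list 2 fell, among them Rpa3 (-0.84 ± 0.27), and the list median was 0.03. Neither gene was called without sample 016, and the call of Rpa3 was lost without 7 of the 10 samples in turn (-1.01 to -0.69). Cdkn2a, which encodes p16, was at 0 in 4 of 5 libraries of each group. Of 12 senescence and lamin genes 1 rose and 1 fell, with a median of -0.17, and of 24 immediate early genes 3 rose and none fell, with a median of 0.12. Without sample 016, 2 immediate early genes rose and the median was -0.21.

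In the interferon-stimulated list no gene passed the test against the young aorta. Of 40 interferon-stimulated genes tested, 0 were DEGs in edgeR and 0 in DESeq2, and 3 had an unadjusted p under 0.05. Of all 12353 genes tested, 2826 had an unadjusted p under 0.05 in edgeR. The change was positive in 31 of the 40 and negative in 9. Held were 12 of the 40, where 53.6% of all tested genes were held. The median log2 change was 0.18, beside 0.60 for the AL-fed mutants of 22 weeks, in which 8 of the 40 rose. Irf7, a master regulator of type I interferon, was counted 42.9, 51.2, 69.7, 33.8 and 84.5 times at 6 weeks, 40, 70.8, 60, 131 and 38.1 times on DR, and 124, 180, 145 and 142 times in the AL-fed mutants. Sample 022 was the highest of the DR group and reached the AL-fed range, while the other 4 lay among the young values (0.33 ± 0.37, adjusted p = 0.643, interval -0.42 to 1.09). Irf9, a partner in interferon signalling, was held at 0.18 (-0.13 to 0.50). Ifitm3, an antiviral membrane protein, was held at 0.26, with an AL-fed change of 0.82 (adjusted p = 0.000121). Sting1, the adaptor of cytosolic DNA sensing, had 16.2 to 34.9 counts at 6 weeks and 17.1 to 31.5 on DR (0.04 ± 0.31), and its interval of -0.58 to 0.66 was too wide to call it held. In the list of 16 cytosolic nucleic acid sensing genes 1 rose, Samhd1, which degrades nucleotides for DNA synthesis, from 348 to 522 counts to 558 to 753 (0.67 ± 0.12).

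Markers of a macrophage-like state of smooth muscle cells gave 1 call in 3. Vcam1, an adhesion molecule for leukocytes, was counted 494, 515, 421, 318 and 238 times at 6 weeks, 631, 535, 530, 487 and 354 times on DR and 1090, 1122, 904 and 1199 times in AL-fed mutants of 22 weeks. The restricted samples overlapped the young ones and all lay below the AL-fed ones (0.34 ± 0.19, adjusted p = 0.299 against 6 weeks, and -1.09, adjusted p = 0.00697 against AL). Its interval of -0.05 to 0.73 reached past the margin, so Vcam1 was not held. Cd68, a lysosomal protein of macrophages, was held at 0.00 (-0.57 to 0.57). Lgals3, which encodes galectin-3, rose from 64.2 to 85.9 counts to 90.5 to 171 (0.79 ± 0.19, adjusted p = 0.00546), beside a rise of 1.62 in the AL-fed group, which held 179 to 271. All 3 genes were lower on DR than in AL-fed mutants, by 1.09, 1.28 and 0.83 on the log2 scale (adjusted p = 0.00697, 0.0114 and 0.0186). Of 23 lipid-associated macrophage genes 4 rose and 1 fell, with a median of 0.45, and without sample 016 5 rose and none fell. Among them Gpnmb rose by 0.84 ± 0.16 and the cholesterol exporter Abcg1 by 1.52 ± 0.30, each without overlap. Mpeg1, a pore-forming protein of macrophages, was at 242 in sample 016 and at 66.9 to 93.4 in the other DR libraries, and its call was lost without that sample (0.58, adjusted p = 0.0952) or without sample 002. Adgre1, a macrophage surface receptor, was at 374 in sample 016 and at 20.5 to 31.5 in the others.

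**Figure D2:**
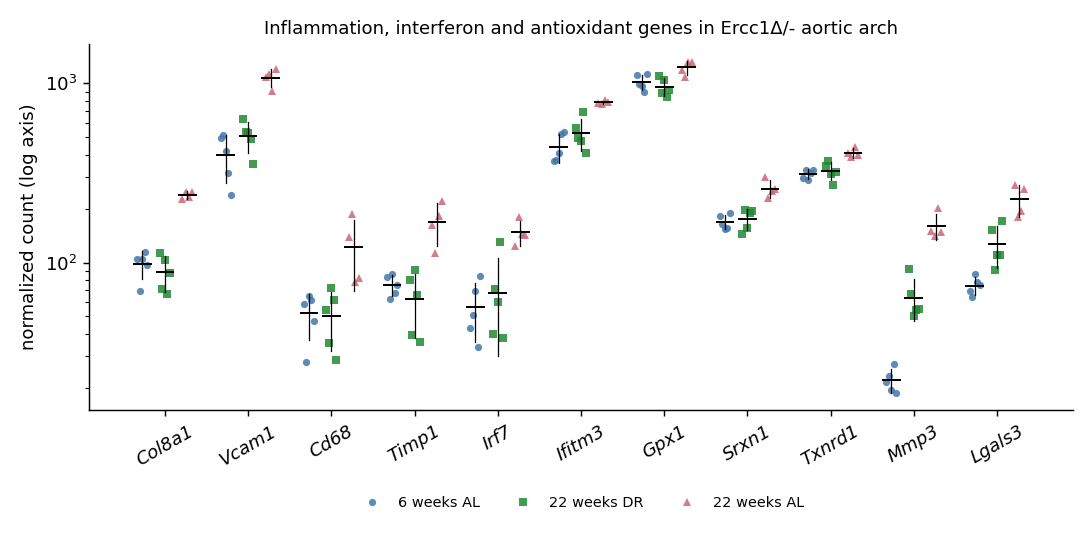
Normalized counts (log axis) of 11 genes of inflammation, interferon response and oxidative defence in Ercc1Δ/- samples at 6 weeks AL (circles, n = 5), 22 weeks DR (squares, n = 5) and 22 weeks AL (triangles, n = 4), with mean (horizontal line) and SD (vertical line). The DR samples of Col8a1, Cd68, Gpx1, Srxn1 and Txnrd1 overlap the young ones, whereas Mmp3 and Lgals3 lie above them.

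Antigen presentation by MHC class II was tested through 9 genes. Of these 9 genes, 8 had a negative change and 2 fell, where 5.52% of all tested genes fell. The median was -0.75, beside 0.71 in AL-fed mutants of 22 weeks and -0.68 in WT mice on DR. H2-Ab1 was counted 83.9, 82.9, 152, 66.4 and 211 times at 6 weeks, 47.1, 39.4, 69.6, 70.9 and 45.7 times on DR and 240, 338, 100 and 149 times in the AL-fed group. All but one young library exceeded all restricted ones, yet the difference did not pass (adjusted p = 0.127). Those that fell were H2-DMb1 (-1.08 ± 0.32), which loads peptides, and the lysosomal protease gene Lgmn (-0.32 ± 0.10). Both calls were lost without samples 027, 006, 014 or 029, and that of Lgmn also without 002, 008 or 015, with leave-one-out ranges of -1.46 to -0.92 and -0.37 to -0.28. The list of 17 lymphocyte markers summed to 12.4 to 22.4 CPM at 6 weeks and to 2.17 to 16.3 in the DR group without sample 016, in which it was 41.8, and the part of these cells in the MHC values was not tested. Fcrl2, a receptor-like gene of immune cells, fell from 27.9 to 64.1 counts to 3.8 to 23.2 (-1.63 ± 0.33, adjusted p = 0.00128) and was 41.9 to 106 in the AL-fed mutants.

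Of 20 complement genes tested, 4 rose and 1 fell, beside 4.23% and 5.52% of all tested genes, with a median of 0.08. Without sample 016 4 rose and 1 fell, with a median of 0.04. In AL-fed mutants of 22 weeks 9 of the 20 rose over the young group, with a median of 0.51. C4b, a component of the classical pathway, was counted 599, 355, 1040, 664 and 707 times at 6 weeks and 1732, 1460, 3447, 1309 and 1387 times on DR. The groups did not overlap, with sample 016 at the top, and the rise was 1.47 ± 0.24 (1.18 without that sample, adjusted p = 0.000388). C3, the central component, rose by 0.83 ± 0.21 with overlap. The complement inhibitor Serping1 rose too (0.46 ± 0.11). Of 19 MHC class I and immunoproteasome genes 2 fell and 1 rose, with a median of 0.02, and -0.02 without sample 016. The riser was Nlrc5, a regulator of MHC class I genes (edgeR adjusted p = 0.0476), whose call was lost without any of 8 samples in turn (0.96 to 1.56), and DESeq2 called 0 risers in this list. The 9 chemokines and cytokines tested gave 0 DEGs in edgeR and 0 in DESeq2. An unadjusted edgeR p under 0.05 was found for 2 of them, beside 2826 of all 12353 genes tested.

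Col8a1, Timp1 and Spp1, secreted proteins tied to wall remodelling, were not called against the young group. Col8a1, a short-chain collagen (GRCm39 chromosome 16, 57444621 to 57575100), was counted 104, 69.8, 105, 115 and 97 times at 6 weeks, 113, 70.8, 103, 66.8 and 87.6 times on DR and 225, 248, 232 and 249 times in AL-fed mutants. It was held against 6 weeks at -0.16 (-0.54 to 0.22), and DR was below AL by 1.47 on the log2 scale (adjusted p = 7.87e-05). Timp1, a metalloprotease inhibitor, was 62.4 to 85.9 at 6 weeks and 36.2 to 91.2 on DR (-0.23 ± 0.30, adjusted p = 0.703), with an interval of -0.85 to 0.39. Spp1, which encodes osteopontin, was counted 21.5, 6.5, 22.7, 9 and 3.1 times at 6 weeks, 44.7, 23.6, 45.6, 12.3 and 26.7 times on DR, and 253, 143, 201 and 234 times in AL-fed mutants. Against 6 weeks its change of 1.19 ± 0.50 did not pass (adjusted p = 0.138), and against AL it was -2.91 (adjusted p = 0.000163).

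Of 50 genes of the oxidative stress response tested, 26 were held, a share near the 53.6% held among all tested genes. In this list 4 rose and 2 fell, beside 4.23% and 5.52% of all tested genes, with a median of 0.08. Srxn1 and Txnrd1, targets of the stress factor NRF2, were held at 0.05 (-0.18 to 0.28) and 0.04 (-0.13 to 0.22), and Gpx1, a glutathione peroxidase, at -0.09 (-0.25 to 0.07). For these the AL-fed changes were 0.61, 0.39 and 0.28, all called. Gsta3, a glutathione transferase, rose from 23.4, 30.7, 51.9, 108 and 54.8 counts to 308, 236, 221, 169 and 265 (2.17 ± 0.38, adjusted p = 0.000542). The 5 restricted values were all above the young ones, of which sample 023 was the highest. Aldh3a1, which removes reactive aldehydes, rose by 1.11 ± 0.22, and Gclc, the limiting enzyme of glutathione synthesis, by 0.51 ± 0.12. Gpx7 and Gpx8, peroxidases of the endoplasmic reticulum, fell by 0.89 ± 0.18 and 0.66 ± 0.12.

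Mitochondrial respiration genes of the nucleus gave 0 that rose and 1 that fell, Atp5mc1 (-0.54 ± 0.15), out of 76 tested, with a median of 0.16 (0.25 without sample 016). Its call was lost without sample 002, 006 or 014 (-0.65 to -0.46). The change was positive in 68 of these 76 genes and negative in 8. Of 12 transcripts encoded in mitochondria 0 passed in edgeR and 0 in DESeq2, 2 had an unadjusted p under 0.05, and none was held (median 0.41). All 12 had a positive change. Sample 006 was high in all 4 mitochondrial transcripts that were examined singly, for example 108056 counts of mt-Co1 beside 44811 to 70426 in the other DR libraries. Of 19 heat shock and cold-inducible genes 15 were held and 0 were DEGs in edgeR, with 1 in DESeq2 and 1 at an unadjusted p under 0.05. Over all 12353 genes tested, 53.6% were held and 2826 had an unadjusted p under 0.05 in edgeR. Of 22 chaperones of the endoplasmic reticulum 20 were held and 5 fell by small amounts, with a median of -0.13, such as P4hb (-0.33 ± 0.08) and Pdia3 (-0.36 ± 0.08). Of 45 lysosomal protein genes 37 were held and 7 fell, led by the collagen-degrading protease gene Ctsk, from 299.8 to 331 counts to 101 to 190 (-1.07 ± 0.14).

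In the contractile machinery of smooth muscle, abundant members such as Myh11 and Acta2 were held and other members fell. Of 44 genes 28 were held, where 53.6% of all tested genes were held. In this list 11 fell and 1 rose, beside 5.52% and 4.23% of all tested genes, with a median of -0.14. Myh11, the smooth muscle myosin heavy chain, was counted 32884, 36830, 48507, 38063 and 26978 times at 6 weeks and 30951, 34800, 37679, 34225 and 37394 times on DR, an even level (-0.07, -0.35 to 0.21). Acta2 (-0.23), Tagln (-0.14) and Mylk (0.11) were held too. Actg2, an actin of visceral smooth muscle, fell from 546 to 953 to 314 to 446 (-1.05 ± 0.17), and Sh3bgr from 965 to 1156 to 439 to 547 (-1.09 ± 0.09). The small heat shock proteins Hspb6 and Hspb7, both found in muscle, fell by 0.88 ± 0.12 and 0.87 ± 0.16. Smtn (-0.57 ± 0.13) and Cnn1 (-0.38 ± 0.10) fell, the second of these while staying within the 1.5-fold margin. Srf and Jun, transcription factors of muscle and of immediate early genes, were not called, with Srf held at -0.23 and Jun at -0.41 ± 0.29 and not held. Casq1, a calcium store protein of muscle chosen after its values were seen, fell from 291 to 652 counts to 70.6 to 149 (-2.08 ± 0.27).

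The molecular clock of each cell is a loop in which BMAL1 and CLOCK switch on their own repressors, the Per and Cry genes and Nr1d1, and output factors such as Dbp, through E-boxes with the letters CACGTG. DBP, TEF and HLF then act on D-boxes with the letters TTATGTAA, which NFIL3 represses. To show these elements, the 250 bases before the start are given for a gene with E-boxes, one with D-boxes and one with neither (RefSeq, GRCm38.p6, each found once by exact match in GRCm39: Ciart chr3:95789541-95789790, minus strand; Per3 chr4:151129123-151129372, minus strand; Bmal1 chr7:112806422-112806671, plus strand). Capitals mark the motifs, searched on both strands.
Ciart: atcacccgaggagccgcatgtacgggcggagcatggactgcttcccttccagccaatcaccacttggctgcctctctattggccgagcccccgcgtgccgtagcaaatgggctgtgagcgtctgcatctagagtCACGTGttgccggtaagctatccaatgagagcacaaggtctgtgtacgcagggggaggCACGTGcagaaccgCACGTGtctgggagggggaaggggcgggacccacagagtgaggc
Per3: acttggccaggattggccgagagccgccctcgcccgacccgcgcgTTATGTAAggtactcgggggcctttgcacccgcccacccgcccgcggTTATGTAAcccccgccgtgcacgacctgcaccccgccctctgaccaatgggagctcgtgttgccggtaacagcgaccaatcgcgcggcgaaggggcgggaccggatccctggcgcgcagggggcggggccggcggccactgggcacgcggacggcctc
Bmal1: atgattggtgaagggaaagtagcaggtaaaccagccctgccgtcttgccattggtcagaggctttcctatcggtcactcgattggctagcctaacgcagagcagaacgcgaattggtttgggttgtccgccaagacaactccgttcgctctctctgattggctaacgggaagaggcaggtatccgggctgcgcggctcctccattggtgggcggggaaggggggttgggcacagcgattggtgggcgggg

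Ciart has 3 E-boxes and Per3 has 2 D-boxes. In windows from 250 bases before to 50 after the start, an E-box was present in 5 of the 16 tested clock genes with a promoter in the table (31.2%) and in 8.09% of all 27025 genes, and a D-box in 1 (6.25%) and in 1.11%. The 5 genes with an E-box were Ciart, Tef, Bhlhe41, Per1 and Cry1. Nr1d1 and Dbp had 0 E-boxes in this window. As a further description, the CHR element TTTGAA was found for 11 of 23 proliferation genes (47.8%, all genes 20.2%) and the CCAAT box for 18 (78.3%, all genes 41.1%). These matches describe letters in a window.

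Of 19 clock genes tested, 9 fell and 2 rose, with a median of -0.30, and without sample 016 8 fell and 2 rose, with a median of -0.61. Bmal1, the activator, was counted 1, 2.8, 1.6, 10.1 and 4.7 times at 6 weeks and 63.5, 63, 36, 19.1 and 49.5 times on DR. The groups were apart, with sample 023 the highest of the young and sample 022 the lowest of the restricted (3.38 ± 0.59, adjusted p = 0.000248). Dbp mirrored this, at 1687, 1654, 1483, 534 and 605 and then 72.9, 94.5, 156, 389 and 109 (-2.83 ± 0.63, adjusted p = 0.00522). Again samples 023 and 027 of the young group and 022 of the restricted group stood nearest to the other group. Nr1d1, which encodes the repressor REV-ERBα, was at 1394, 1924, 1056, 289 and 316 and then 80, 51.2, 142, 319 and 101 (-2.79 ± 0.68). Here the groups overlapped through the same 3 samples.

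Among the D-box regulators, Hlf fell from 368 to 512 counts to 158 to 312 (-1.18 ± 0.21), and Tef from 1323 to 1964 to 753 to 1241 (-0.73 ± 0.16), while the D-box repressor Nfil3 rose by 1.46 ± 0.39. Per3, with its 2 D-boxes, fell from 523 to 690 to 212 to 428 (-0.94 ± 0.16, adjusted p = 0.000279). Ciart, a repressor of the clock with 3 E-boxes, was counted 155, 235, 122, 52.9 and 36 times and then 25.9, 7.9, 40.8, 21.8 and 28.6 times (-2.22 ± 0.68, adjusted p = 0.0412), and leaving out any of 8 samples ended the call while the change stayed between -2.46 and -1.87. Bhlhe41 fell by 1.77 ± 0.35, and Bhlhe40 and Nr1d2 by 0.87 ± 0.24 and 0.79 ± 0.24. Calls of Nfil3 (1.29 to 1.73), Bhlhe40 (-1.06 to -0.73) and Nr1d2 (-0.97 to -0.66) were lost without some samples, 002, 006 and 029 in each case. Per1 (-0.25 ± 0.31, adjusted p = 0.681) and Cry1 (0.54 ± 0.19, adjusted p = 0.0761) did not pass, and Per2 and Cry2 were held at -0.14 and -0.11. In AL-fed mutants of 22 weeks Bmal1 rose by 2.36, Per3 fell by 1.05 and Hlf by 1.06, and the AL-fed change of Dbp, -1.76, did not pass (adjusted p = 0.122). The hour at which each mouse died was not given in the sources used here, and restricted mice were fed just before the dark period, so hour of death and group cannot be told apart.

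**Figure D3:**
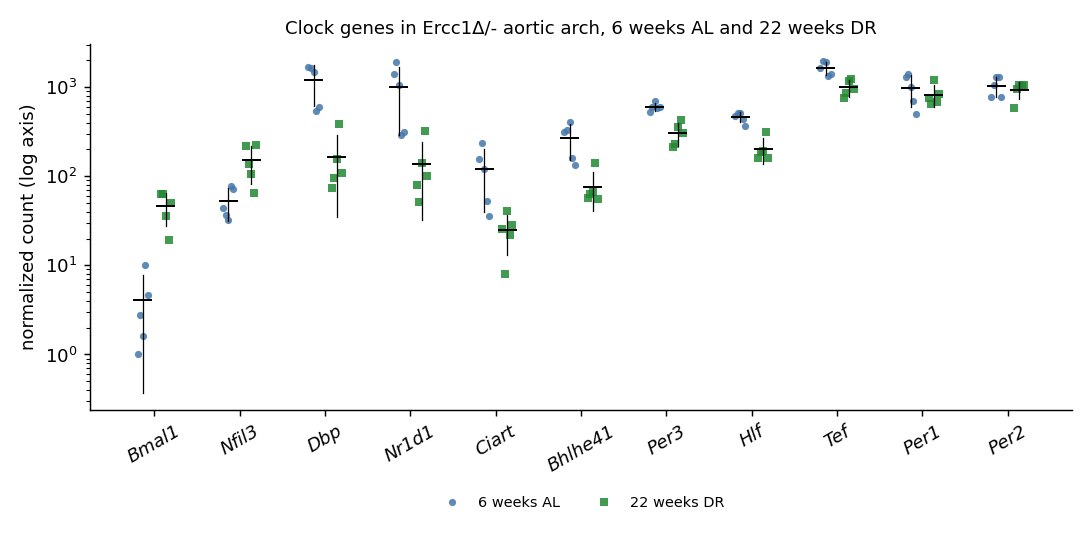
Normalized counts (log axis) of 11 clock genes in the 5 Ercc1Δ/- samples at 6 weeks AL (circles) and the 5 at 22 weeks DR (squares), with mean (horizontal line) and SD (vertical line). Bmal1 is higher and Dbp, Per3, Hlf and Tef are lower on DR without overlap, while Per1 and Per2 overlap.

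Of 30 genes tested that answer to glucocorticoids and fasting 8 rose and none fell, with a median of 0.50, beside 0.02 in the AL-fed mutants and -0.06 in WT mice on DR, and 6 rose without sample 016. Mt2, a metallothionein that binds zinc, was counted 257, 185, 216, 336 and 197 times at 6 weeks and 969, 661, 950, 375 and 648 times on DR. All restricted values were above the young ones, with sample 022 the lowest (1.57 ± 0.25, adjusted p = 0.000223). Mt1 rose by 1.08 ± 0.19, and the stress kinase gene Map3k6 rose 2.15-fold, from 208 to 344 counts to 296 to 722 (adjusted p = 0.000626). Fkbp5, a chaperone of the glucocorticoid receptor, rose from 358 to 726 to 807 to 1694 (1.12 ± 0.28). Irs2 (0.94 ± 0.19), Tsc22d3 (0.89 ± 0.27) and Arrdc2 (0.99 ± 0.28) also rose. Leaving out samples 015, 027 or 016 ended the call of Arrdc2 (0.62 without 016, adjusted p = 0.104), and these and samples 023, 006 and 029 that of Tsc22d3 (0.73 to 1.03). Pdk4, a switch from glucose to fat use, was at 0.84 ± 0.37 and did not pass (adjusted p = 0.167).

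The arch is surrounded by fat. The 20 fat markers summed to 1864 to 5431 CPM at 6 weeks and 3032 to 5282 on DR. Lep, which encodes the hormone leptin, was counted 14.6, 8.4, 11.3, 14.6 and 75.1 times at 6 weeks and 2.4, 0, 0, 0 and 0 times on DR. It was a DEG (adjusted p = 0.0223) that lost its call without samples 027, 006 or 029, and no fold is given for so few reads. Adipoq (0.37 ± 0.47) and Plin1 (-0.20 ± 0.55), other fat cell genes, were not called. Retn, the fat hormone resistin, rose from 4.7 to 12.4 counts to 16.8 to 31.5 (1.58 ± 0.43), a call lost without sample 008 or 006 (1.38 to 1.88). Cholesterol synthesis genes gave 1 that rose (Pmvk) and 1 that fell of 23, with a median of -0.26. Fatty acid synthesis genes gave 1 and 1 of 22, Lpin1 and Fads2, with a median of 0.18. Without sample 016 neither Lpin1 nor Fads2 was called and the median of their list was 0.32. In both lists these counts were near the shares of all tested genes, 4.23% higher and 5.52% lower. The calls were lost without samples 008, 022 or 029 for Pmvk (0.52 to 0.86), and without 8 of the 10 samples for Lpin1 (0.70 to 1.16) and 6 for Fads2 (-0.64 to -0.44).

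Igf1, insulin-like growth factor 1, was counted 308, 419, 356, 332 and 593 times at 6 weeks and 202, 177, 115, 265 and 126 times on DR. The groups were apart (-1.19 ± 0.19, adjusted p = 0.00014), and the changes in AL-fed mutants and in WT mice on DR were -0.92 and -1.18. Htra1 and Htra3, secreted proteases of the wall, fell by 0.82 ± 0.10 and 0.81 ± 0.11, whereas Htra4 rose from 54.6 to 63 to 82.7 to 151 (1.03 ± 0.17). In all, the IGF list of 18 genes had 4 that rose and 4 that fell and a median of 0.14 (0.06 without sample 016), the receptors Igf1r (0.44) and Insr (0.53) among those that rose. The call of Igf1r was lost without samples 002, 006 or 029 (0.36 to 0.54). Nnat, an imprinted gene active in young tissue, went from 13.5 to 51.6 counts to 0 to 7.9 (-3.14 ± 0.59). Meg3, an imprinted non-coding RNA, fell by 0.75 ± 0.11, and in all 3 of 18 genes of the growth and imprinted list fell and 1 rose, with a median of -0.09, and without sample 016 3 fell and 2 rose, with a median of -0.02.

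Wnt antagonists had a negative change in all 8 genes tested, and 3 fell, with a median of -0.37. Wif1, which binds Wnt proteins outside the cell, was counted 167, 138, 162, 146 and 177 times at 6 weeks and 80, 51.2, 36, 61.4 and 80 times on DR (-1.33 ± 0.20, adjusted p = 2.88e-05). Sfrp2 (-1.16 ± 0.25) and Sfrp4 (-1.32 ± 0.24) fell, also without overlap. In the TGF-beta list 4 of 27 genes fell and 1 rose, with a median of -0.13. Tgfb2, one of the ligands, fell from 423 to 538 to 188 to 295 (-0.90 ± 0.14), and Tgfbr1, a receptor, rose by 0.56 ± 0.13. Id3, a target of BMP signals, fell by 0.66 ± 0.12.

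**Figure D4:**
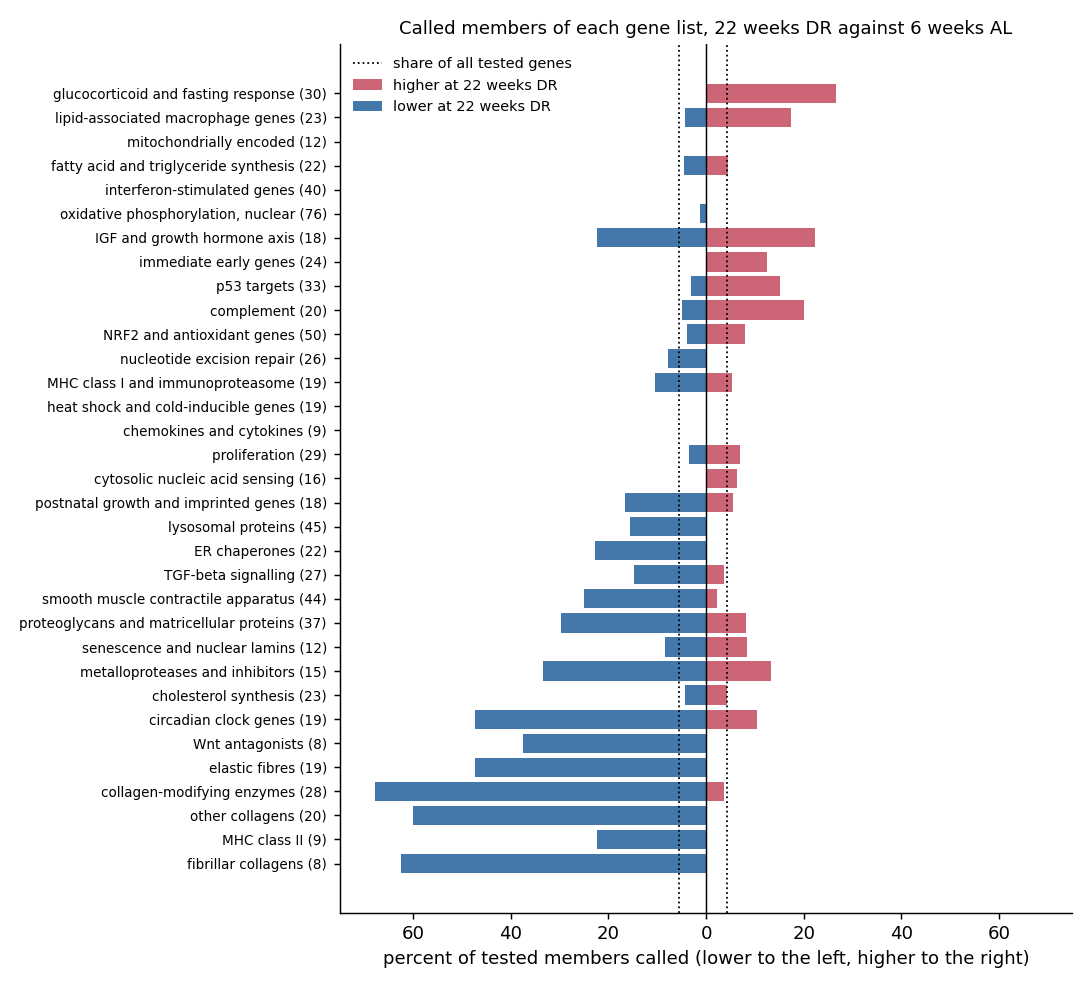
Percent of tested members of each pathway list with at least 8 genes tested (number tested in brackets) called higher (bars to the right) or lower (bars to the left) at 22 weeks DR than at 6 weeks AL, ordered by median log2 change. Dotted lines mark the shares over all 12353 genes, 4.23% higher and 5.52% lower. Of the lists drawn, the 3 collagen lists reach furthest to the left, followed by elastic fibres and clock genes with 9 of 19 each, and the glucocorticoid and fasting list reaches furthest to the right with 8 of 30.

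Adventitial fibroblast markers, which share genes with the matrix lists, gave 6 that fell and 2 that rose among 12, with a median of -0.44, and 4 that fell and 1 that rose without sample 016 (median -0.36). Pi16, a marker of adventitial progenitor-like fibroblasts, fell by 1.04 ± 0.20, and Col14a1 from 2393 to 2719 counts to 988 to 1984 (-0.92 ± 0.12), whereas Dpep1 rose by 0.85 ± 0.19. Cd34 was held at -0.05. Tnnt2, cardiac troponin T, was 149 to 598 at 6 weeks and 673 to 1838 on DR (1.75 ± 0.39), and the summed cardiac markers were higher too, and the part of attached heart muscle was not tested. Myh6, the heart muscle myosin, was 1.1 to 317 and 24 to 539 and was not called (adjusted p = 0.438).

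Restricted and AL-fed mutants of 22 weeks differed in 163 DEGs (1.32% of the genes tested), and AL-fed mutants differed from the young group in 683 (5.53%). The AL-fed group had 4 libraries and the DR group 5, so these counts do not rank how far each group lay from the young one. Of the 5 genes with the smallest p that were higher on DR than on AL, Usp54 stood at 289, 336, 335, 342 and 221 at 6 weeks, 513, 484, 641, 376 and 581 on DR and 249, 322, 343 and 281 on AL. All DR values exceeded those of both other groups (0.76 ± 0.13 against 6 weeks, adjusted p = 0.000136, and 0.79 against AL, adjusted p = 0.00333). Cgnl1, a protein of cell junctions, was 731 to 1052, 871 to 1765 and 731 to 921 in the same order of groups (0.56 ± 0.13 against 6 weeks). Garre1 rose by 0.44 ± 0.11 against 6 weeks, a call lost without sample 016 (0.35 at the lowest). Hhip, an inhibitor of hedgehog signals, was not called against 6 weeks (0.52 ± 0.19, adjusted p = 0.0781) and was higher on DR than on AL, where it was 39.1 to 74.6 and every DR value was above that range (adjusted p = 0.00538). Sncg, gamma-synuclein, was 227 to 292 at 6 weeks, 356 to 403 on DR and 620 to 1038 on AL, with no overlap between the groups (0.56 ± 0.15 against 6 weeks, and -0.96 against AL, adjusted p = 0.00158).

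The 10 most abundant genes held within 1.2-fold were Gsn, Hsp90ab1, Csrp1, App, Pbxip1, Adcy5, Ddx5, Clic4, Ptms and Smoc1. Gsn, which encodes the actin-severing protein gelsolin, was counted 15222, 14870, 15675, 15927 and 12771 times at 6 weeks and 14154, 18022, 13173, 14729 and 12598 times on DR (-0.04, interval -0.24 to 0.16). Csrp1, a smooth muscle LIM protein, was 5291 to 6261 and 5089 to 6125 (-0.08, -0.25 to 0.09). App, the amyloid precursor protein, was 4587 to 6195 and 4991 to 5606 (-0.04, -0.22 to 0.15). The changes of the other 7 lay between -0.07 and 0.03. For Hsp90ab1, a cytosolic chaperone held in the mutants at 0.01, the WT mice on DR had a rise of 0.40 over WT at 6 weeks (adjusted p = 0.0216), and the difference between genotypes did not pass (adjusted p = 0.315).

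The same contrast in WT mice, 5 at 22 weeks on DR against 5 at 6 weeks AL, gave 285 DEGs (2.31% of the genes tested) and shares no sample with the mutant contrast. In WT, 1061 of the 1204 mutant DEGs (88.1%) had the same sign, beside 64% of all tested genes. Genes that were DEGs in both genotypes in the same direction numbered 174, which is 14.5% of the mutant list and 61.1% of the WT list, and 0 were DEGs in opposite directions. The difference in change between genotypes passed the test for 13 genes (0.105%), with an adjusted p of 0.0432 for 12 of them and 0.0455 for Col15a1. In 10 the mutant change was the lower one. Mfap4 changed by -1.24 ± 0.10 in mutants and -0.49 ± 0.10 in WT, Serpinh1 by -1.21 ± 0.14 and -0.23 ± 0.13, and Col15a1 by -1.65 ± 0.13 and -0.82 ± 0.12. Wif1 changed by -1.33 ± 0.20 in mutants and by -0.06 ± 0.16 in WT. Fzd2, a Wnt receptor, and Wwp2, a ubiquitin ligase, fell in mutants by 0.61 and 0.58 and had WT changes of 0.25 and 0.13 that were not called.

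Apod was one of 3 genes with the higher change in mutants. Its group means were 42 in WT at 6 weeks, 56.5 in WT on DR, 43.2 in mutants at 6 weeks and 219 in mutants on DR, and the difference in change was 1.95 ± 0.39. Pdp2, a phosphatase that activates pyruvate dehydrogenase, differed by 1.02 ± 0.21 and Ip6k2 by 0.79 ± 0.17. These calls were fragile as a set. DESeq2 called 89 genes, among them 11 of the 13, and leaving out 1 of the 20 samples gave between 0 and 81, with 0 for 12 of them.

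**Figure D5:**
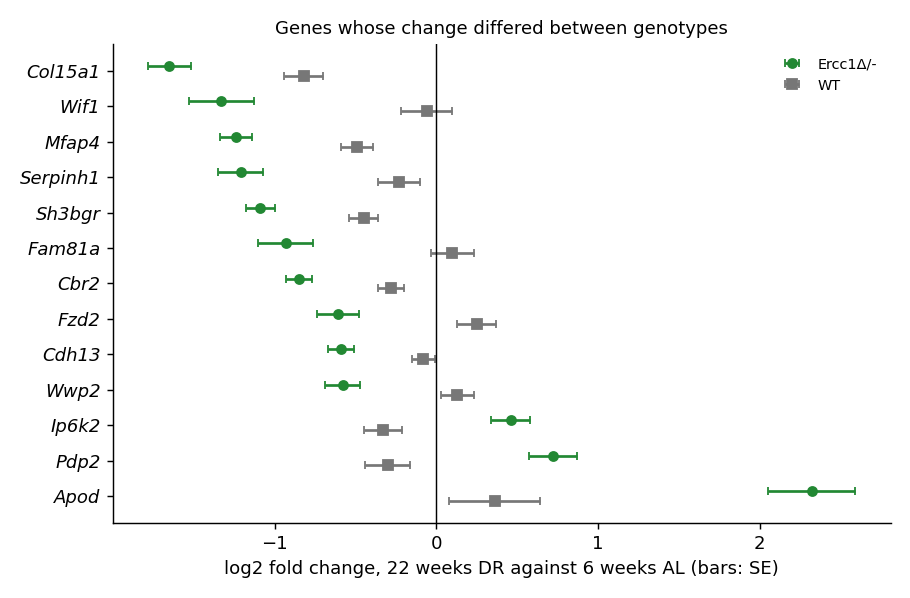
Log2 fold change with SE (bars) of the 13 genes whose change from 6 weeks AL to 22 weeks DR differed between genotypes, in Ercc1Δ/- mice (circles) and WT mice (squares), n = 5 per group. Apod stands at 2.32 in mutants and 0.36 in WT, and Col15a1 at -1.65 and -0.82.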

How the data were processed

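RNA from mouse aortic arches was sequenced with a directional kit, and per the labels and the study's methods the authors demultiplexed reads with bcl2fastq 2.20, handled molecular identifiers with UMI-tools 1.1.2, trimmed with fastp, aligned to GRCm39 with STAR 2.7.10a and counted with HTSeq 2.0.2. The values used are the raw counts per gene that the authors deposited, 1 column per mouse. The unassigned classes of the counter (7.45 to 10.1% without a feature, 4.12 to 7.06% not unique, 1.65 to 1.78% ambiguous) were kept out of library sizes. Gene symbols and coordinates came from GENCODE on GRCm39.

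The 12353 genes whose count exceeded 10 in over 10 samples were tested with edgeR 4.0.16 in R 4.3.3: TMM scaling and a quasi-likelihood test whose model held group and sex, over 28 samples that share 1 estimate of spread. Sample 003, a WT library, was left out of the fit. P-values were adjusted by Benjamini-Hochberg. A DEG changed by 1.2-fold or more at an adjusted p no higher than 0.05, a held gene a 95% interval within 1.5-fold, and the genotype difference was an interaction term at an adjusted p of at most 0.05. A normalized count is the count over the scaled library size, times the mean library size of 3683502. Each mouse gave 1 library, and no pair of libraries in a group agreed within sampling noise. On simulated data with 12353 genes, 71 of 100 genes changed 2-fold and 95 of 100 changed 3-fold were called, and 3 unchanged genes were called.

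The members and gene lists were chosen with earlier results of these data known. Named were the 10 DEGs of smallest p each way, up to 4 genes of smallest p per list, the 10 most abundant genes held within 1.2-fold, the 5 of smallest p each way between DR and AL at 22 weeks, the 10 interaction genes of smallest p, genes the study names, and tissue markers. Other genes named were chosen after their values were seen. Some genes that the rule names are not reported here. Alternatives were DESeq2 1.42.0, RLE size factors, no count filter, only the compared groups, no sex term, sample 003 added, thinning to 921167 counts, a test against 1.2-fold, a 1.2-fold margin and leaving out each sample. List counts without sample 016 were added after seeing the data. Plots used matplotlib 3.10.9 and permutation tests scipy 1.17.1.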

Additional observations from a re-analysis of the deposited data

Results flagged for a closer look

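In 338 sets of 5 values examined for a single sample far from the rest of its group, 24 had one, where chance gives about 1 in 20. Sample 016 accounted for 6 of them: the highest DR counts of Prg4 (7089), C4b (3447), Mpeg1 (242), Ccl9 (175), Id3 (689) and App (5606). Sample 022 accounted for 5, as the highest DR count of the clock genes Hlf (312) and Bhlhe41 (140.5), of Fads2 (333) and of Nlrc5 (38.2), and the lowest of Cdo1 (1547). Sample 029 was highest on DR for Celf4 (97.2), Idi1 (26.7) and Lpin1 (644), and sample 006 for Cp (760.1).

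At 6 weeks, sample 023 was the lowest for Col4a5 (2475), Col6a1 (4199), Fbn1 (1683), Htra1 (2300) and Id3 (611). Sample 027 was the highest for Hmgb2 (72) and Mfap5 (2095). Sample 008 was the lowest for Ctsk (299.8) and sample 015 the highest for Celf4 (21.1).

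The change from 6 weeks AL to 22 weeks DR differed between Ercc1Δ/- and WT mice for 13 genes by the interaction term of edgeR, given here as mutant minus WT on the log2 scale. The differences were 1.95 for Apod, 1.02 for Pdp2 and 0.79 for Ip6k2. They were -1.27 for Wif1, -1.03 for Fam81a, -0.97 for Serpinh1, -0.86 for Fzd2, -0.83 for Col15a1, -0.75 for Mfap4, -0.71 for Wwp2, -0.64 for Sh3bgr, -0.57 for Cbr2 and -0.51 for Cdh13.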

How the results depend on the processing

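No paired analysis was possible because each mouse gave 1 sample and sample numbers are unique. The count of 1204 DEGs became 695 with only the 10 samples in the fit and 780 after thinning to the lowest total. It was 422 when tested against a 1.2-fold change, and 893 to 1287 when each sample was left out in turn. The other alternatives gave 983 to 1339. The 6624 held genes became 747 with a margin of 1.2-fold, 4778 after thinning, and 5768 to 6380 with a sample left out. The 13 genes that differed between genotypes became 89 with DESeq2, 6 with RLE size factors, 1 with only the compared groups, 3 without the sex term and 0 with sample 003 added (edgeR, 1009 at an unadjusted p under 0.05). Leaving out 1 sample gave 0 to 81 of them, the highest without sample 022 and 35 without sample 023. The cause was not tested. Of 192 named DEGs, 129 were called under every alternative fit at the main threshold, and 0 of these 192 changed direction. The test against a 1.2-fold change is not counted among these fits. Estimates of named genes that were not called could change sign, as for Adgre1 (1.18, and -0.71 without sample 016). The lowest restricted library held 921167 counts, which limits what can be called for genes of low count.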
